A study of Caenorhabditis elegans with 28 samples.

Results

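mRNA levels of wild-type larvae and of *ebax-1* mutant larvae were compared over 3 consecutive hours at which the study's timing placed both genotypes at the same point of larval development. The comparison held 6 of the 28 samples of the series: wild type at 22, 23 and 24 h after plating on food, and the mutant at 25, 26 and 27 h. They were chosen by hour from the sample labels and paired at a shift of 3 h (22 h with 25 h, 23 h with 26 h, 24 h with 27 h). The wild type was the N2 strain, and the mutant carried *ebax-1(tm2321)*, an allele of strain HW3527. Larvae of both strains were hatched without food, so that they arrested as L1 larvae, and each strain was then plated at 25°C on *E. coli* OP50. RNA came from whole pooled larvae, with 1 library per genotype and hour. The labels name no separate cultures within a genotype, so genotype and culture cannot be told apart, and the 3 hours of a genotype are successive harvests rather than independent replicates. The mutant runs about 3 h late, and the study chose the 3 h shift from these same mRNA data. The stretch from wild-type 22 to 24 h is called the middle stretch, between an early stretch (wild type 18 to 21 h, mutant 21 to 24 h) and a late one (wild type 25 to 28 h, mutant 28 to 31 h).

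EBAX-1, the worm counterpart of mammalian ZSWIM8, brings substrates to a Cullin-RING ubiquitin ligase. It is known for the decay of certain microRNAs, thought to be set off by RNAs they bind, and for the quality control of the axon guidance receptor SAX-3. *C. elegans* larvae pass through repeated molts, and a large share of genes, many of them for the cuticle, rise and fall with each molt, so that samples taken an hour apart can differ widely at the same genotype. The intestine is the animal's organ of digestion, fat storage and defence against swallowed microbes, while the epidermis secretes the cuticle and small antimicrobial peptides.

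The quality of the stage match was examined first. Each middle mutant library was correlated, across 12099 genes and on log2 levels centred per gene, with wild-type libraries interpolated between hours. The best lag was 2.7 h for the mutant at 25 h (r = 0.785), 2.8 h at 26 h (r = 0.758) and 3.3 h at 27 h (r = 0.703). At a lag of exactly 3 h the correlations were 0.757, 0.746 and 0.684, and at the same hour they were negative (-0.661, -0.710 and -0.667). The first 2 mutant libraries thus lay slightly ahead of their wild-type partners and the last one slightly behind. These correlations run across genes, which are not independent replicates, and are given as a description.

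**Figure D1:**
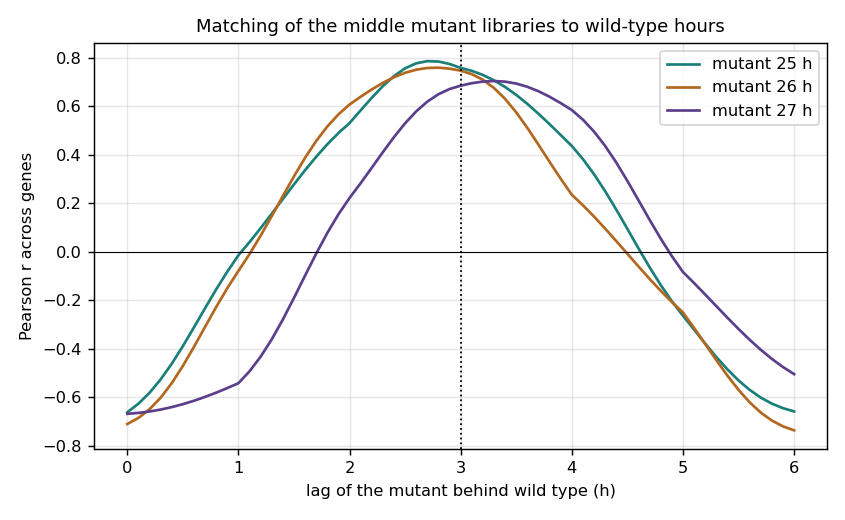
Pearson correlation (y axis, across 12099 genes) of each middle mutant library with an interpolated wild-type library, for lags of 0 to 6 h (x axis, hours by which the mutant trails). The 3 curves peak at 2.7, 2.8 and 3.3 h, around the dotted line at 3 h, and lie below 0 at a lag of 0.

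Gene levels moved quickly within these hours. Between the first and the last hour, 1736 of the 12099 genes changed by at least 2-fold in wild type and 1098 in the mutant. Of the 863 genes that did so in both, 850 changed in the same direction, and across all genes the changes in the genotypes were correlated (r = 0.795). The hypodermal collagen *dpy-7*, for example, stood at 759, 295 and 78.4 CPM (read counts relative to library size, with libraries scaled by the trimmed mean of M-values, TMM) in wild type at 22, 23 and 24 h and at 658, 309 and 212 CPM in the mutant at 25, 26 and 27 h. It declined in both courses, from similar first values to a wild-type end point below that of the mutant. In what follows, 3 values of a gene are always in this order of hours and in TMM-scaled CPM.

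Library totals ran from 5701773 to 9604238 counts over the 6 libraries, so a gene at 1 CPM rested on some 6 to 10 reads. Marker genes of body wall and pharyngeal muscle, neurons, intestine, hypodermis, coelomocytes and germ line were detected in all 6 libraries. Adult and embryonic genes were near the floor: the 30 major sperm protein genes summed to between 0.319 and 2.04 CPM, the yolk genes *vit-2* and *vit-6* stayed at or below 0.786 CPM, and the embryonic genes *end-1*, *end-3* and *med-1* at or below 0.178 CPM.

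*ebax-1* itself (WBGene00004140; WBcel235 chromosome IV, 10286955 to 10293013, plus strand) checks the labels. It stood at 133, 69.1 and 42.97 CPM in wild type and at 39.8, 24.0 and 25.4 CPM in the mutant. Every mutant library lay below every wild-type library, but the highest mutant value, at 25 h, was close to the lowest wild-type value, at 24 h. The fitted log2 difference (mutant minus wild type) was -1.37 (SE 0.19, edgeR adjusted p = 0.00185), or 2.58-fold lower. The difference lost its call without the first pair (-1.15, edgeR adjusted p = 0.0248) and without the second (-1.29, edgeR adjusted p = 0.026). This value was -0.69 with pairs 2 h apart and -1.89 with pairs 4 h apart. In wild type *ebax-1* declined over these hours, and whether that accounts for the change with the pairing was not tested. Which reads come from the stretch removed by the allele cannot be seen in gene-level counts, so the check is a partial one.

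Which genes differed between the genotypes beyond the delay was tested with edgeR's quasi-likelihood test, with matched pairs as a block, and with the spread taken from the 11 pairs of all 3 stretches. Of 12099 genes, 179 (1.48%) passed at an adjusted p under 0.01, with 106 higher in the mutant (0.876%) and 73 lower (0.603%). At an adjusted p under 0.05, 623 passed (5.15%), and at an unadjusted p under 0.05, 2371 (19.6%). Over all calls, the median log2 difference was 1.16 for the increases and -0.48 for the decreases. These medians include the genes set aside in the next paragraph and were not recomputed without them. At least 2-fold higher were 60 genes (0.496%), and at least 2-fold lower were 11 (0.0909%). All 179 had the same sign in 3 of 3 pairs, and for 160 of them the 3 mutant values and the 3 wild-type values did not overlap. Over all genes tested such separation was itself frequent, with 1061 genes entirely higher (8.77%) and 1120 entirely lower (9.26%) in the mutant, 18.0% in all.

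Of the 179, 11 higher genes had no wild-type library, and 2 lower genes no mutant library, above the CPM cutoff of the filter (1.283). Such a gene passed the filter only through the genotype in which it is high, so its level is given below as a description and not as a test. Without them 95 genes were higher and 71 lower, of which 49 and 9 were at least 2-fold apart.

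The count rests on the pairing and on the shared spread. Without the pair block 37 genes passed (0.306%), 36 of them among the 179, with the 6 libraries alone 12 passed (0.0992%), 11 of them among the 179, and without the pair at wild-type 22, 23 or 24 h 91, 43 and 57 passed, with 36 genes called in all 3 of these fits. Scaling by total counts alone, which moved the median of all genes by 0.036, turned the split of 106 higher and 73 lower into 112 and 43.

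**Figure D2:**
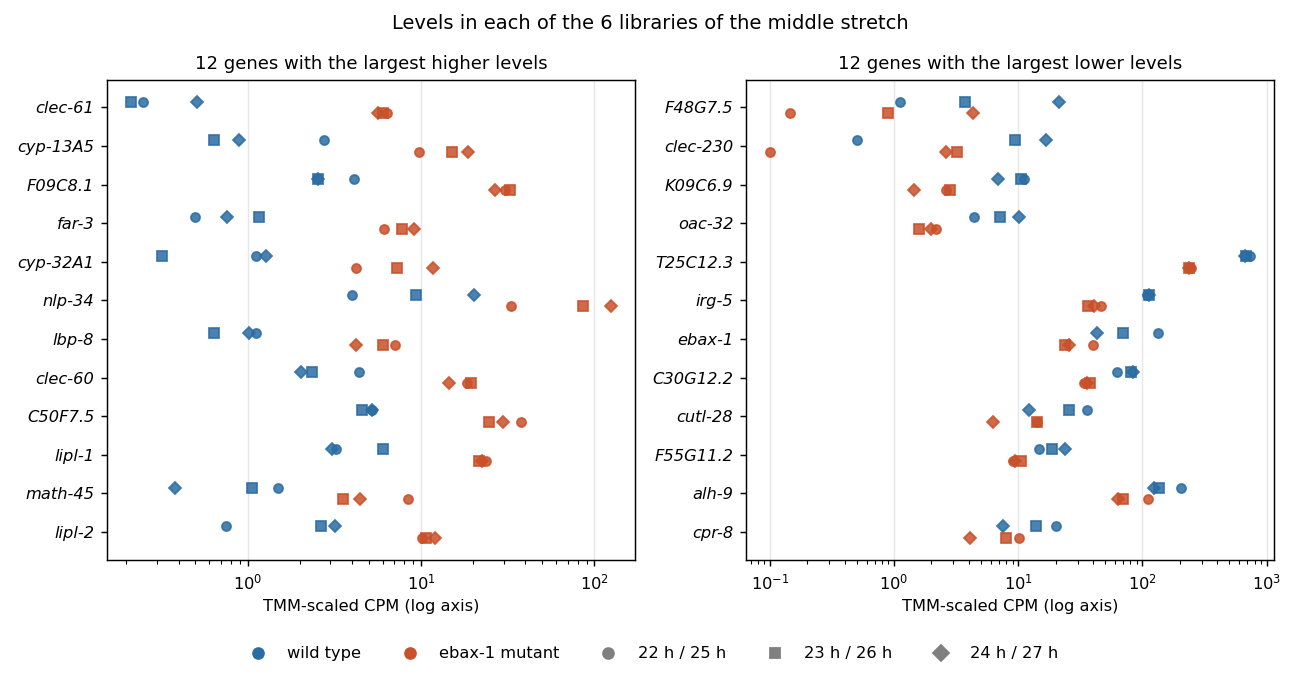
TMM-scaled CPM (x axes, log scale) in each of the 6 libraries for the 12 largest increases (left) and decreases (right) among called genes with a mean of at least 5 CPM in the higher genotype. Colours mark the genotype and symbols the matched hour, and the mutant value of *clec-230* at 25 h, which was 0, is drawn at 0.1 CPM. *clec-61*, *far-3*, *cyp-32A1* and *lbp-8* passed the filter through the mutant alone. The groups are fully apart for all 12 genes on the left, while *F48G7.5*, *clec-230*, *cutl-28* and *cpr-8* on the right overlap between hours.

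Of all lists, the C-type lectins had the most increases. These secreted carbohydrate-binding domain proteins that respond to microbes in the intestine had 12 of 87 tested members higher and 1 lower. Over all genes tested 0.876% were called higher and 0.603% lower, shares that apply equally to the edgeR counts of the lists below. The lectins had a median log2 difference of 0.38, against 0.016 over all genes tested. Of the 12 higher lectins, *clec-61*, *clec-70* and *clec-75* passed the filter through the mutant alone, which leaves 9. Values of close family members are uncertain where gene copies share sequence.

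*clec-61* (WBGene00014047; WBcel235 chromosome II, 10488730 to 10490537) is one of the 3 that passed the filter through the mutant alone. It stood at 0.249, 0.213 and 0.51 CPM in wild type and at 6.39, 6.04 and 5.63 CPM in the mutant, so it was close to the detection floor in wild type at every hour and clearly present in the mutant. The wild-type values rest on 2, 2 and 4 reads. Pooled over the 3 hours it had 8 reads in wild type and 121 in the mutant, a ratio of 19.0 that is given as a description. Its neighbour on the same strand, *clec-60* (WBGene00014046; WBcel235 chromosome II, 10480043 to 10481874), was also higher, at 4.37, 2.34 and 2.04 CPM in wild type and 18.3, 19.5 and 14.5 CPM in the mutant, a 6.05-fold difference (log2 2.60, SE 0.24, edgeR adjusted p = 0.000103).

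The abundant lectin *clec-63* showed a smaller and very even difference. It was at 1491, 1589 and 1479 CPM in wild type and 2330.4, 2329 and 2126 CPM in the mutant, 1.48-fold higher (log2 0.57, SE 0.038, edgeR adjusted p = 6.25e-06). *clec-71* was at 3.49, 3.93 and 5.99 CPM against 16.13, 24.51 and 23.8 CPM, and *clec-169* at 15.6, 11.3 and 9.56 CPM against 59.6, 49.0 and 40.9 CPM. None of these 3 genes overlapped between the genotypes. The other called lectins were *clec-42*, *clec-65*, *clec-70*, *clec-75*, *clec-80*, *clec-206* and *clec-210*, with log2 differences from 0.48 (*clec-65*) to 2.36 (*clec-75*). The 1 lower lectin, *clec-230*, was at 0.499, 9.46 and 16.8 CPM in wild type and 0, 3.20 and 2.62 CPM in the mutant. Both genotypes rose from close to 0, and their values overlapped. Its difference of -2.21 became -0.33 with pairs 4 h apart.

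Lysozymes, which cut bacterial cell walls, had 2 of 10 members higher and 0 lower by edgeR, beside 0.876% and 0.603% of all genes. At an unadjusted p under 0.05, 5 were higher and 0 lower, with 2 higher by DESeq2 and 1 by limma. *lys-7* (WBGene00003096; WBcel235 chromosome V, 3481432 to 3482600), an intestinal lysozyme needed for defence against several microbes, was at 20.0, 25.0 and 27.0 CPM in wild type and 97.3, 121 and 94.96 CPM in the mutant. All 3 mutant values were more than 3-fold above all wild-type values, and the fitted difference of 2.11 (SE 0.12, 4.33-fold, edgeR adjusted p = 1.77e-06) was called in all 14 alternative analyses. *ilys-5*, an invertebrate-type lysozyme, was 508, 513 and 446 CPM against 594, 594 and 613 CPM, a difference of 0.29 close to the threshold (edgeR adjusted p = 0.00977). Of the saposin-like genes, whose pore-forming products act on bacterial membranes, *spp-2*, *spp-5* and *spp-18* were higher among 19 tested. *spp-5*, abundant in the intestine, was at 233, 231 and 242 CPM and 327, 323 and 330.3 CPM, with no overlap and hardly any change over the hours in either genotype.

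Epidermal antimicrobial peptides of the *nlp* family, which the skin makes upon wounding or fungal infection, were the list with the highest median. All 8 tested members had a positive difference, with a median of 1.34, and 5 of 8 were called higher, beside 0.876% of all genes. In the early and late stretches the medians were 0.49 and 0.62, with 2 and 3 members called. *nlp-34* (WBGene00015046; WBcel235 chromosome V, 3978825 to 3979134, minus strand) was at 3.99, 9.36 and 20.3 CPM in wild type and 33.1, 85.8 and 124 CPM in the mutant. It was rising from hour to hour in both genotypes, and the lowest mutant value still exceeded the highest wild-type value. The difference was 2.90 (SE 0.20, 7.48-fold, edgeR adjusted p = 7.59e-06).

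Its neighbours differed in how they moved over these hours. *nlp-31* was at 29.7, 19.6 and 16.45 CPM in wild type and 52.6, 62.9 and 77.3 CPM in the mutant, falling in one and rising in the other (difference 1.56, SE 0.21, edgeR adjusted p = 0.00136). *nlp-30* was at 9.36, 16.7 and 13.8 CPM against 21.1, 43.2 and 52.1 CPM (difference 1.504, edgeR adjusted p = 0.00129). *nlp-27* was at 10.48, 2.34 and 1.79 CPM against 23.4, 10.1 and 19.4 CPM, with overlapping groups, since the first wild-type value exceeded the second mutant value. *nlp-27*, *nlp-29*, *nlp-30*, *nlp-31* and *nlp-34* lie within a short interval of chromosome V (WBcel235, from 3978825 for *nlp-34* to 3989770 for *nlp-27*), and *nlp-33* (0.85) lies elsewhere on that chromosome. *nlp-29*, a widely used reporter of this response, was at 13.6, 6.59 and 5.10 CPM against 17.1, 14.03 and 25.8 CPM, a difference of 1.18 that did not pass (edgeR adjusted p = 0.0354). *nlp-26* (0.82) and *nlp-24* (0.03) did not pass either. *cnc-4*, a caenacin of the same epidermal response, was higher, at 1.996, 2.66 and 2.55 CPM in wild type and 4.65, 8.70 and 10.9 CPM in the mutant (difference 1.72, SE 0.22, edgeR adjusted p = 0.000949).

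Of 25 infection response genes tested, *cnc-4* and *dod-22* were higher and *irg-5*, *irg-4* and *dod-17* lower. At the 3 h match the list leaned to positive differences, with a median of 0.47 and 18 of 25 positive. At an unadjusted p under 0.05, 14 were higher and 4 lower, with 5 and 3 by DESeq2 and 2 and 3 by limma. The median became 0.56 with pairs 2 h apart and 0.013 with pairs 4 h apart. It was 0.14 early, with 1 higher and 4 lower calls, and 0.10 late, with 4 and 4. *irg-5* (WBGene00009429), an intestinal gene induced by pathogens, was at 109.8, 113 and 112 CPM in wild type and 46.6, 36.2 and 40.3 CPM in the mutant. Both genotypes were nearly flat over the 3 hours, with a difference of -1.45 (SE 0.094, 2.74-fold lower, edgeR adjusted p = 5.39e-06). *irg-4*, which encodes a CUB-like domain protein needed for defence in the intestine, was at 89.8, 76.8 and 59.0 CPM and 46.6, 42.3 and 38.8 CPM. The 2 *dod* genes, named for lying downstream of the insulin-regulated factor DAF-16, moved oppositely: *dod-22* was at 9.85, 5.42 and 3.19 CPM in wild type and 26.2, 11.9 and 14.3 CPM in the mutant, while *dod-17* was at 25.2, 26.9 and 30.0 CPM and 15.4, 14.4 and 17.6 CPM. Neither gene overlapped between the genotypes. Of the 16 insulin signalling outputs tested, the small heat shock gene *sip-1* was higher (0.71) and the superoxide dismutase *sod-1* lower (-0.33), with a list median of 0.053. The metallothionein *mtl-1* was at 2.25, 2.45 and 2.81 CPM and 5.81, 5.51 and 5.76 CPM, without overlap, but did not pass (difference 1.18, edgeR adjusted p = 0.0197).

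Several genes for the breakdown and transport of lipids were also higher. Lipases had 4 of 9 tested members higher and 0 lower by edgeR, beside 0.876% and 0.603% of all genes. Their median was 0.56, with 5 higher and 1 lower at an unadjusted p under 0.05, 5 and 0 by DESeq2, and 4 and 0 by limma. All 4 genes called by edgeR encode acid lipases of the lysosomal type. *lipl-1* (WBGene00010062) was at 3.24, 6.06 and 3.06 CPM in wild type and 23.8, 21.7 and 22.4 CPM in the mutant (5.48-fold, SE 0.27 log2, edgeR adjusted p = 0.000335). *lipl-2* was at 0.748, 2.66 and 3.19 CPM against 10.2, 10.7 and 12.1 CPM, and *lipl-5* at 247, 254 and 264 CPM against 351, 386 and 398 CPM. These genes were nearly flat in the mutant and separated from wild type at every hour. *lipl-3*, which passed the filter through the mutant alone, was at 0.998, 0.213 and 0.255 CPM against 2.76, 2.31 and 2.36 CPM. Without it 3 lipases were higher by edgeR, while the counts by the other tools do not set it aside. *lipl-4*, whose forced expression extends lifespan, was at 1.37, 2.34 and 2.81 CPM against 1.60, 1.95 and 1.83 CPM and did not pass, nor did the adipose triglyceride lipase homolog *atgl-1* (-0.27).

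*lbp-8* encodes a lipid chaperone that carries a lysosomal lipid signal to the nucleus. It was at 1.12, 0.638 and 1.02 CPM in wild type and 7.12, 6.04 and 4.19 CPM in the mutant, with no overlap. *far-3*, for a secreted fatty-acid- and retinol-binding protein, was at 0.499, 1.17 and 0.765 CPM against 6.10, 7.81 and 9.17 CPM. Both passed the filter through the mutant alone and were close to the floor in wild type, where *lbp-8* had 9, 6 and 8 reads and *far-3* had 4, 11 and 6. In the same family the abundant cytoplasmic fatty-acid-binding gene *lbp-6* was lower, at 416, 445 and 523 CPM in wild type and 317, 336 and 369 CPM in the mutant (difference -0.44, SE 0.054, edgeR adjusted p = 0.000751), so apart from *lbp-8* and *far-3* the 16 tested members held 1 lower and 0 higher calls by edgeR. For the whole list, with *lbp-8* and *far-3* not set aside, 3 were higher and 2 lower at an unadjusted p under 0.05. DESeq2 and limma each called 2 higher and 1 lower in that whole list.

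Of the 14 fatty acid desaturase and elongase genes, 2 were higher, both for enzymes that place the first double bond in saturated fatty acids. *fat-5*, which acts on palmitic acid, was at 52.02, 90.1 and 72.9 CPM in wild type and 143, 199 and 203 CPM in the mutant. Both genotypes were lowest at the first hour, and the mutant lay above wild type throughout (difference 1.35, SE 0.14, 2.55-fold, edgeR adjusted p = 0.000252). *fat-6*, which acts on stearic acid, was at 486, 504 and 471 CPM against 678, 717 and 689 CPM (difference 0.50, SE 0.068, edgeR adjusted p = 0.00146). Its close relative *fat-7* was at 60.9, 39.6 and 38.4 CPM against 53.6, 49.4 and 57.1 CPM, with overlap and no call (difference 0.22, edgeR adjusted p = 0.73). The other 11 genes of the list had differences between -0.36 (*elo-9*) and 0.11 (*fat-3*).

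Called hydrolases outside the lists went in both directions, and those named here were picked out after their values were seen, so no count stands behind them. The acid ceramidase genes *asah-1* and *asah-2*, on different chromosomes, were at 38.8, 29.9 and 22.1 CPM against 64.4, 65.4 and 60.6 CPM and at 23.8, 23.1 and 23.6 CPM against 53.0, 65.4 and 53.6 CPM, with differences of 1.09 and 1.27. The acid alpha-glucosidase homolog *aagr-1* differed by 0.75 and *nuc-1*, the lysosomal DNase II that digests DNA of dead cells and food, by 0.63. In the other direction, the cathepsin A homolog *ctsa-4.1* was lower (-0.79), as was *abhd-3.2* of the alpha/beta hydrolase family (-0.56). *nuc-1* was at 39.3, 49.1 and 50.6 CPM in wild type and 68.7, 75.3 and 72.0 CPM in the mutant, with no overlap. Among 19 aspartyl and cathepsin proteases, which digest protein in lysosomes and gut, *asp-4* (0.41), *cpr-1* (0.82) and *cpr-3* (1.08) were higher and *cpr-8* (-0.90) and *asp-13* (-0.33) lower. *F09C8.1* (WBGene00008621), in no list, was at 4.12, 2.55 and 2.55 CPM in wild type and 30.5, 32.7 and 26.9 CPM in the mutant (9.77-fold, edgeR adjusted p = 3.55e-05) and was called in all 14 alternative analyses.

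**Figure D3:**
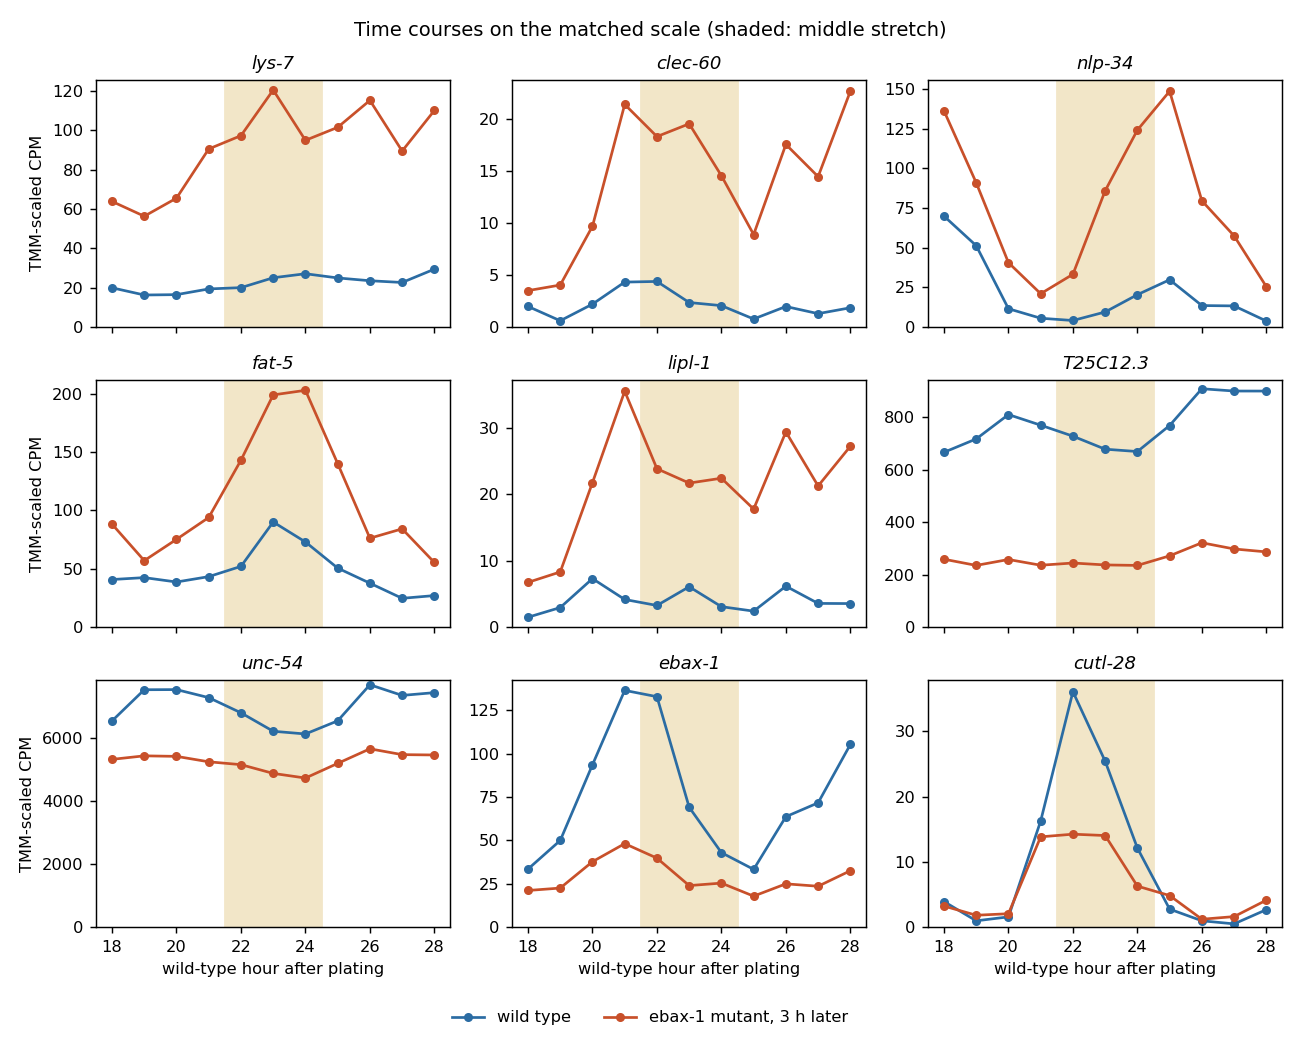
Time courses of 9 genes in TMM-scaled CPM (y axes, from 0) on the matched scale (x axis, wild-type hour after plating, with the mutant drawn 3 h earlier than sampled), with 1 library per point and the middle stretch shaded. *lys-7*, *clec-60*, *nlp-34*, *fat-5* and *lipl-1* lie higher and *T25C12.3*, *unc-54* and *ebax-1* lower in the mutant at all 3 middle hours, while *cutl-28* has a local peak at the start of the stretch in both and is lower in the mutant at its 3 hours.

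Of the detoxification lists, the cytochrome P450 genes, which oxidise foreign compounds and lipids, had the most calls. By edgeR 3 of 47 members were higher and 0 lower, with a median of 0.25, beside 0.876% and 0.603% of all genes. At an unadjusted p under 0.05, 17 were higher and 4 lower, with 4 and 0 by DESeq2 and 3 and 0 by limma. In the mutant 16 lay entirely higher and 1 entirely lower (8.77% and 9.26% of all genes). In the early stretch 7 were called higher and in the late one 11, with 0 lower in both. *cyp-13A5* was at 2.74, 0.638 and 0.893 CPM in wild type and 9.73, 15.1 and 18.6 CPM in the mutant, a difference of 3.33 (SE 0.50, edgeR adjusted p = 0.003). *cyp-32A1* was at 1.12, 0.319 and 1.28 CPM against 4.21, 7.28 and 11.7 CPM and rose from hour to hour in the mutant alone. It passed the filter only through the mutant, and without it 2 P450 genes were higher by edgeR, while the counts by the other tools do not set it aside. As a description, the fitted difference of *cyp-32A1* was 3.07 in the middle stretch, but 0.99 in the early and 0.99 in the late stretch. It was 1.63 and 2.52 with pairs 2 and 4 h apart, and -0.55 at the same hour. The difference between the stretches did not pass (edgeR adjusted p = 0.117). *cyp-35A3* (0.54) also passed. So did 2 of 54 glucuronosyltransferases, close to the threshold: *ugt-8* (0.86, edgeR adjusted p = 0.00966) and *ugt-44* (0.87, edgeR adjusted p = 0.00973). *ugt-44* was at -0.23 at the same hour. The median of their list was -0.024, with 6 higher and 6 lower at an unadjusted p under 0.05. DESeq2 called 2 higher and 0 lower there, and limma 0 and 0.

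Among the ABC transporters, which pump compounds out of cells, the P-glycoprotein *pgp-1* was higher, at 77.8, 83.4 and 90.5 CPM in wild type and 189, 240.5 and 256 CPM in the mutant (difference 1.43, SE 0.14, edgeR adjusted p = 0.000122), and *pgp-3* lower (-0.58, edgeR adjusted p = 0.00803). No glutathione transferase (0 of 32; 2 higher and 3 lower at an unadjusted p under 0.05), short-chain dehydrogenase (0 of 28; 2 and 6) or nuclear hormone receptor (0 of 173; 24 and 6) was called by edgeR. DESeq2 called 1 transferase and 1 receptor higher, and limma called none of the 3 families.

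Fewer decreases than increases reached 2-fold, with 9 against 49 once the genes that passed the filter through 1 genotype are left out. *T25C12.3* (WBGene00012018; WBcel235 chromosome X, 11491087 to 11499999, minus strand) had the lowest adjusted p of all genes. It was at 728, 679 and 669.7 CPM in wild type and 244, 237 and 235 CPM in the mutant, nearly constant within each genotype, with a difference of -1.54 (SE 0.062, 2.91-fold lower, edgeR adjusted p = 7.37e-08). *K09C6.9* was at 11.1, 10.53 and 6.89 CPM and 2.62, 2.84 and 1.44 CPM, *C30G12.2* at 62.1, 81.5 and 83.9 CPM and 33.9, 37.7 and 36.02 CPM, and *F55G11.2* at 14.6, 18.7 and 23.8 CPM and 9.01, 10.48 and 9.43 CPM. For these 3 genes no library of one genotype fell among those of the other. *oac-32*, for an O-acyltransferase homolog, was at 4.37, 7.12 and 10.2 CPM against 2.18, 1.60 and 1.96 CPM, and the related *oac-14* went the other way (1.60), so that 1 of 17 tested members was higher and 1 lower. *F48G7.5*, which climbed steeply in both genotypes, was at 1.12, 3.72 and 21.3 CPM in wild type and 0.145, 0.888 and 4.32 CPM in the mutant, with overlap, and its difference of -2.29 was -4.12 with pairs 2 h apart and -0.57 with pairs 4 h apart.

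Of the fatty acid activation and beta-oxidation list, 0 of 52 members were higher and 2 lower by edgeR (3 higher and 20 lower at an unadjusted p under 0.05, 1 and 5 by DESeq2, 0 and 1 by limma), with a median of -0.15. The early and late medians were 0.040 and 0.0040, with 5 higher and 2 lower calls early and 3 and 6 late. The 2 lower genes of the middle stretch were *ech-6*, for an enoyl-CoA hydratase, and *acdh-9*, for an acyl-CoA dehydrogenase. *ech-6* was at 848, 887 and 994 CPM in wild type and 572, 617 and 696 CPM in the mutant. It rose in parallel in both genotypes, 1.46-fold lower by the fit (log2 -0.54, SE 0.044, edgeR adjusted p = 3.55e-05).

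*ech-6* belongs to the propionate shunt, a mitochondrial route that breaks down propionate when vitamin B12 is scarce. The other genes of this route are given here after their values were seen. *hach-1*, the hydrolase of the route, was at 229, 291 and 348 CPM in wild type and 173, 201 and 221 CPM in the mutant (difference -0.54, edgeR adjusted p = 0.000668), and *hphd-1*, the dehydrogenase that follows it, at 567, 614 and 663 CPM against 390.2, 426 and 503 CPM (difference -0.50, edgeR adjusted p = 0.00185). The first gene of the route, *acdh-1*, was at 2129, 2658 and 3114 CPM and 1621, 2237 and 2489 CPM, with overlap (difference -0.33, edgeR adjusted p = 0.0587), and the last, *alh-8*, at 1179.8, 993 and 997 CPM and 969, 911 and 849 CPM (difference -0.22, edgeR adjusted p = 0.0471), and neither passed. In the B12-dependent route *pcca-1* differed by 0.03, *pccb-1* by 0.08, *mce-1* by -0.19 and *mmcm-1* by -0.09, none of them called by edgeR. The routes were not tested against each other.

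Some other lower enzymes of metabolism were picked out in the same way, from no list. *alh-9*, for an aldehyde dehydrogenase, was at 205, 135 and 124 CPM against 110.3, 69.1 and 63.5 CPM (difference -0.95). The cytosolic isocitrate dehydrogenase *idh-1* was at 969, 471 and 331 CPM in wild type and 474, 251 and 232 CPM in the mutant (difference -0.83), and the cytosolic aconitase *aco-1* at 701, 533 and 443 CPM and 454, 325 and 316 CPM (difference -0.62). Both declined over the hours in both genotypes, and their groups overlapped. The branched-chain keto acid dehydrogenase subunit *dbt-1* (-0.29), the hexokinase *hxk-2* (-0.36), the phosphoglycerate kinase *pgk-1* (-0.30), the glycogenin *gyg-1* (-0.35) and the mitochondrial pyruvate carrier *mpc-1* (-0.57) were each lower.

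Body wall muscle, which moves the animal, was the list with the most lower members. By edgeR 7 of 24 tested were lower and 0 higher, beside 0.603% and 0.876% of all genes. At an unadjusted p under 0.05, 18 were lower and 0 higher. The median was -0.18, and -0.18 and -0.19 in the early and late stretches. The body wall myosin heavy chain *unc-54* (WBGene00006789) was at 6808, 6222 and 6135 CPM in wild type and 5161, 4884 and 4736 CPM in the mutant. All mutant values were below all wild-type values (-0.38, SE 0.035, edgeR adjusted p = 8.52e-05). The minor myosin heavy chain *myo-3*, by contrast, was at 596, 583 and 628 CPM and 612, 598 and 592 CPM (difference -0.01, edgeR adjusted p = 0.927). The other 6 lower genes encode thin and thick filament proteins, namely troponin C (*pat-10*, -0.31), actin (*act-1*, -0.27, whose reads near-identical actin genes may share), troponin I (*unc-27*, -0.25), *dim-1* (-0.23), a myosin light chain (*mlc-3*, -0.22) and paramyosin (*unc-15*, -0.20). The muscle calls depended on the scaling and the tool: with total counts alone the median was -0.14 and 3 members were lower, against 10 by DESeq2 and 0 by limma. Pharyngeal muscle had a median of 0.11, with 0 of 8 called by edgeR, DESeq2 or limma and 1 higher at an unadjusted p under 0.05. In whole larvae, fewer cells of a type and less RNA per cell cannot be told apart.

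Differences of genes for protein synthesis and turnover were small and mostly negative. All 69 mitochondrial ribosomal protein genes tested had a negative difference, with a median of -0.20 (-0.16 with total counts alone). Of these, 46 had all mutant values below all wild-type values, as did 9.26% of all genes tested. At an unadjusted p under 0.05, 19.6% of all genes passed in either direction. Only *mrps-14* (-0.38) and *mrps-26* (-0.35) passed by edgeR, while 40 were lower at an unadjusted p under 0.05, 3 by DESeq2, 0 by limma and 1 with total counts alone. *mrps-14* was at 83.3, 89.6 and 89.1 CPM in wild type and 64.2, 68.6 and 70.2 CPM in the mutant. Of 79 cytosolic ribosomal protein genes 64 were negative (median -0.092) and of 33 proteasome subunits 32 (median -0.13). None of either was called by edgeR, with 2 higher and 37 lower ribosomal genes and 0 higher and 18 lower proteasome genes at an unadjusted p under 0.05. With total counts alone, the medians were -0.06 and -0.09 beside a median of 0.052 over all genes. DESeq2 called 3 and 1 lower in these lists, and limma 0 and 0. In the early and late stretches edgeR called 17 and 24 cytosolic ribosomal genes lower (medians -0.11 and -0.14). It called 16 and 23 mitochondrial ribosomal genes lower there (medians -0.23 and -0.28), beside 2.99% and 3.92% of all genes. No proteasome subunit was called in those stretches.

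**Figure D4:**
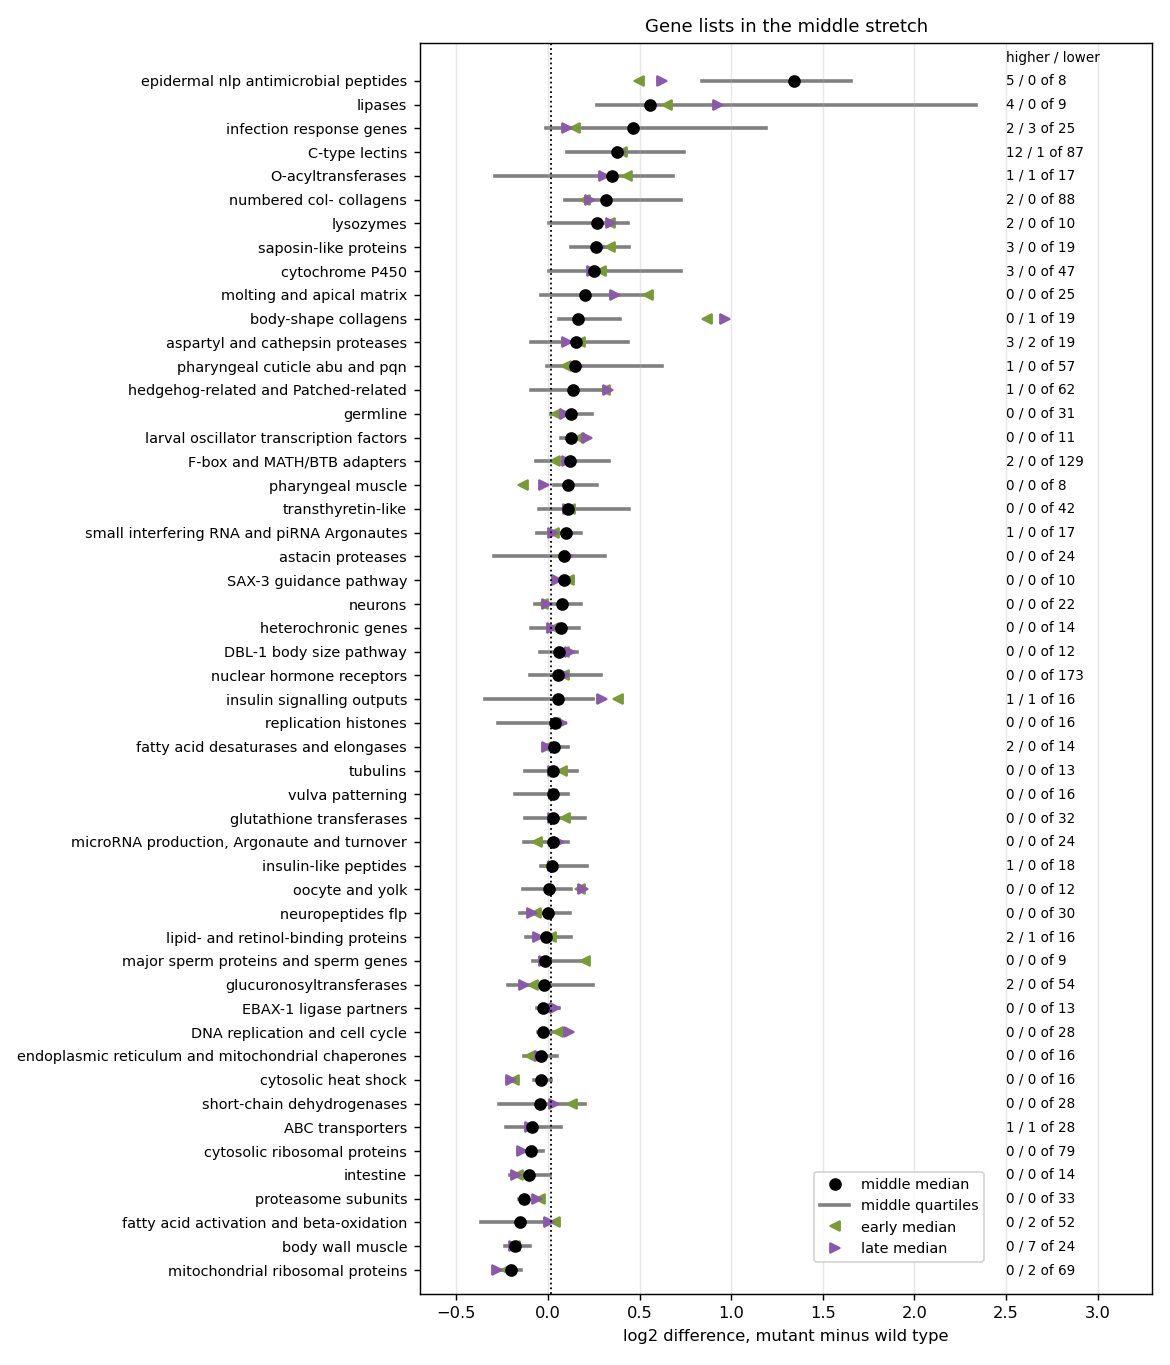
Median log2 difference (mutant minus wild type, x axis) of each gene list with at least 8 tested members in the middle stretch (circles) with its quartiles (bars), beside the medians of the early and late stretches (triangles). The dotted line is the median of all genes (0.016), the numbers at the right give members higher and lower at an adjusted p under 0.01 of those tested, and the epidermal *nlp* peptides lie farthest to the right (1.34).

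Cuticle and molting genes, which cycle with the molts, gave few calls. Of 88 numbered *col* collagens 2 were higher and 0 lower by edgeR (25 and 2 at an unadjusted p under 0.05, 10 and 0 by DESeq2, 1 and 0 by limma), with a median of 0.32 that became -0.57 with pairs 2 h apart and 1.19 with pairs 4 h apart. *col-39* was at 44.5, 22.8 and 149 CPM in wild type and 70.3, 72.5 and 318 CPM in the mutant, with overlap, and its difference of 1.12 was -0.55 with pairs 2 h apart and -3.68 at the same hour. *col-138* (1.85) was the other. Of 25 molting and apical matrix genes 0 were called by edgeR or limma, 1 was higher by DESeq2, and 2 were higher and 1 lower at an unadjusted p under 0.05. Their median of 0.20 compared with 0.55 early and 0.37 late, and became 0.77 and -0.17 with pairs 2 and 4 h apart.

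Of the 19 body-shape collagens, which give the cuticle its form, only *dpy-17* was called in the middle stretch. It was at 4.62, 2.45 and 2.30 CPM in wild type and 1.02, 0.178 and 0.786 CPM in the mutant, near the floor and without overlap. It passed the filter only through wild type. No other member was called in this stretch by edgeR, limma or DESeq2, and 1 was higher at an unadjusted p under 0.05. The list median was 0.16, against 0.87 early and 0.96 late. There 5 and 7 members were called higher and 0 lower, beside 2.67% and 3.53% of all genes higher. With pairs 2 and 4 h apart the median was 0.74 and 0.55. The cuticlin-like gene *cutl-28*, which was declining in wild type, was at 36.05, 25.4 and 12.1 CPM and 14.2, 14.03 and 6.29 CPM, with overlap. Its difference was -1.07, and it became 0.06 with pairs 2 h apart and 3.18 at the same hour, so its direction depends on the match. *ptr-8*, a Patched-related gene of the epidermis, was at 27.1, 7.23 and 6.38 CPM against 62.9, 29.7 and 41.0 CPM (difference 1.85, but -1.05 at the same hour).

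The ligase in which EBAX-1 acts and the microRNA pathway showed no gene called by edgeR in the middle stretch besides *ebax-1*. Of 13 partners (cullins, elongins, RING proteins and other receptors of the CUL-2 ligase) 0 passed by edgeR, DESeq2 or limma, and 1 was lower at an unadjusted p under 0.05. *cul-2* was at 108, 131 and 132 CPM in wild type and 114, 129 and 118.7 CPM in the mutant (difference -0.04, SE 0.064). Of 24 genes for microRNA production, Argonautes and turnover 0 passed by edgeR or limma and 1 was lower by DESeq2, with 2 higher and 2 lower at an unadjusted p under 0.05. In the mutant 3 lay entirely higher and 4 entirely lower (8.77% and 9.26% of all genes). The 2 most abundant were among the lower: *vig-1* (-0.13, SE 0.028, edgeR adjusted p = 0.0198) and *tsn-1* (-0.27, edgeR adjusted p = 0.0911). *vig-1* was called lower early (-0.31) and late (-0.19), and 1 member was called higher late. The Argonaute *alg-1* was at 363, 267 and 235 CPM against 335, 272 and 237 CPM (difference -0.03, SE 0.055), and *alg-2* at 70.5, 70.6 and 71.9 CPM against 72.1, 60.7 and 61.2 CPM (difference -0.15, SE 0.082). Of 10 SAX-3 pathway genes 0 passed by any of these tools and 2 were higher at an unadjusted p under 0.05. *sax-3* was at 62.4, 74.4 and 69.6 CPM and 80.9, 84.0 and 83.3 CPM, entirely apart at 0.26 (SE 0.08, edgeR adjusted p = 0.0837). In other small RNA pathways, *sago-1*, an Argonaute of secondary small interfering RNAs, was higher (0.47, 1 of 17 tested), and *nrde-2*, a factor of nuclear RNA interference, lower (-0.46).

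Genes that set developmental timing were examined because the genotypes differ in pace. Of 14 heterochronic genes 0 passed by edgeR, DESeq2 or limma, with 1 higher and 1 lower at an unadjusted p under 0.05, and likewise 0 of 11 transcription factors of the larval oscillator (2 higher and 1 lower). *lin-42*, the period homolog, was at 874, 586 and 240.0 CPM in wild type and 658, 401 and 268 CPM in the mutant, declining in both (difference -0.28, edgeR adjusted p = 0.264), and with pairs 2 to 4 h apart it ranged from -0.73 (4 h) to 0.84 (2 h). Lists for neurons (0 of 22), germ line (0 of 31), intestine (0 of 14) and the DNA replication and cell cycle genes (0 of 28) had no call by edgeR or DESeq2, and limma called 1 intestinal gene higher. At an unadjusted p under 0.05 the germ line list had 10 members higher and 0 lower, the intestine list 1 and 6, the neuron list 5 and 2 and the cell cycle list 1 and 0. Among 18 insulin-like peptides *ins-35* was higher (5.99, 8.29 and 5.61 CPM against 18.3, 13.7 and 14.1 CPM, difference 1.21, edgeR adjusted p = 0.00236).

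How far each call depends on the hour of the match was read from pairs set 2 h or 4 h apart in place of 3 h. The mutant libraries of the middle contrast stayed the same. All other pairs were reset as well, so the spread behind these calls came from other pairs. The fit was repeated on 2 h pairs (96 genes called, 0.793%) and 4 h pairs (18 genes, 0.149%), and at the same hour 84 genes were called (0.694%). Of the 179 genes, 177 kept their direction at 2 h and all 179 at 4 h, while these fits share most mutant and wild-type libraries with the 3 h fit. At 2 h 55 were also called and at 4 h 16. The 11 genes called in the same direction at 2, 3 and 4 h were *lys-7*, *clec-63*, *asah-2*, *F09C8.1*, *Y41G9A.10*, *pho-14*, *C40H1.8* and *F54D5.3*, all higher, and *T25C12.3*, *irg-5* and *K09C6.9*, all lower (0.0909% of genes tested). *T25C12.3* stood at -1.57, -1.54 and -1.60 at the 3 shifts and *lys-7* at 2.01, 2.11 and 2.28. Of the 179 genes, 35 changed by at least 2-fold within the 3 hours in at least 1 genotype (19.6%, against 16.3% of all genes tested).

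**Figure D5:**
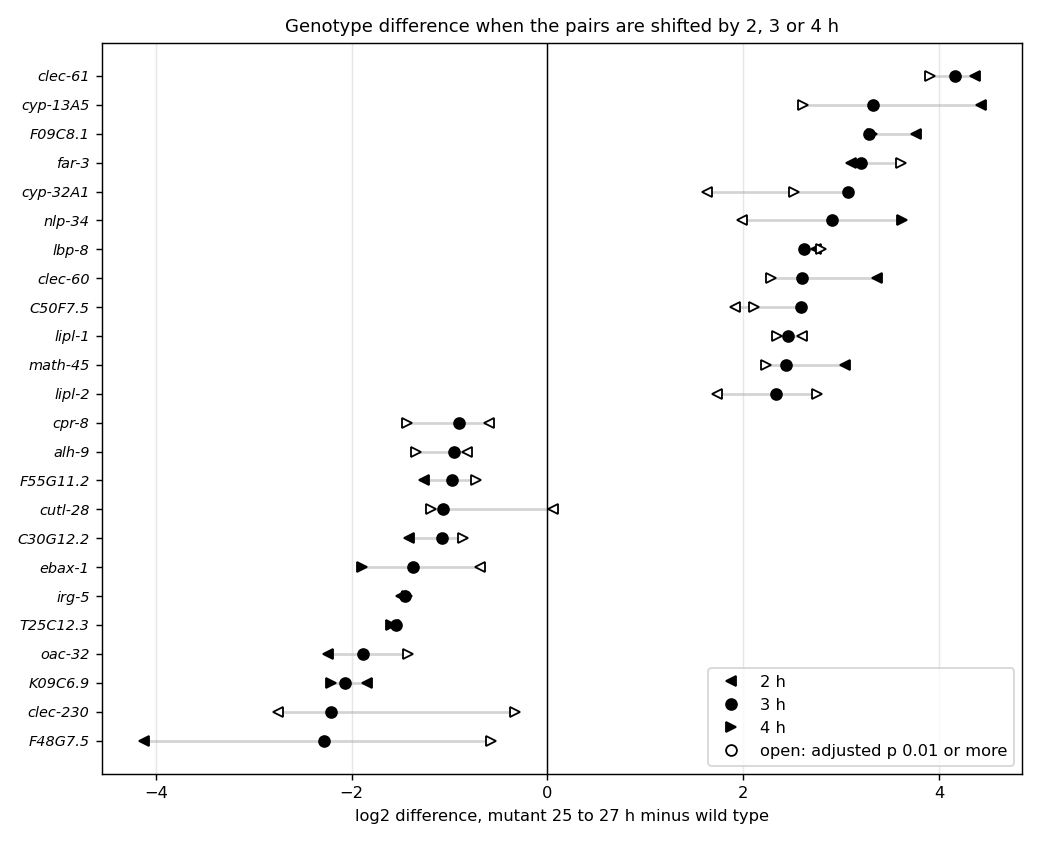
Log2 difference (x axis, mutant at 25 to 27 h minus wild type) of the same 24 genes when the pairs are 2 h (left triangles), 3 h (circles) or 4 h (right triangles) apart, with open symbols for an adjusted p of 0.01 or more. *T25C12.3* and *irg-5* move little, while *cutl-28* reaches 0.059 and *F48G7.5* runs from -4.12 to -0.57.

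Whether a difference was particular to the middle stretch was tested as the middle difference minus the mean of the early and late differences. No gene passed (0 of 12099 by edgeR, 0.0%, and 0 by limma, against 15 by DESeq2), the lowest edgeR adjusted p was 0.0675, and 1190 genes (9.84%) had an unadjusted p under 0.05. That lowest p belonged to *hsp-4*, a chaperone of the endoplasmic reticulum, which was at 193, 200.4 and 244 CPM in wild type and 181, 209 and 259 CPM in the mutant, with a difference of 0.01 in the middle stretch, -0.60 early and -0.34 late. In the same fit 685 genes were called early (5.66%, with 2.67% higher and 2.99% lower) and 901 late (7.45%, with 3.53% higher and 3.92% lower), from 4 pairs each against 3. Of the 179 middle genes, 120 were called in the same direction in both other stretches and 26 in neither. Those 26 included *nlp-31*, *nlp-27*, *fat-6*, *mpc-1*, *hxk-2*, *dpy-17*, *cutl-28*, *col-39* and *ptr-8*. *fat-6* differed by 0.50 in the middle stretch, 0.13 early and 0.21 late, but the difference between the stretches did not pass (edgeR adjusted p = 0.162).

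Called genes were spread over all chromosomes. Chromosome V had the highest share, with 53 of 2310 tested genes (2.29%), and chromosome I the lowest, with 11 of 1965 (0.56%). Within 1 Mb of *ebax-1* 6 of 301 tested genes were called (1.99%): *ebax-1* itself, *idh-1*, *coa-4* and *adk-1*, which were lower, and *spp-18* and *ugt-44*, which were higher. The share of called genes there was close to that over all genes (1.48%).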

How the data were processed

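Poly(A) RNA of whole larvae was sequenced as stranded paired-end libraries. The authors mapped the reads to the ce10 genome with HISAT2 through QuasR (no version is given in the sources used here), and counted reads on WS220 exons with regard to strand. The deposited counts per gene, with no normalization, were used (20392 genes). The deposited log2 table, scaled to the mean library size, was not used.

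Genes passed edgeR's filterByExpr on the 6 middle libraries (minimum count 10), which left 12099. Counts were scaled by TMM and fitted with edgeR 4.0.16 (quasi-likelihood, R 4.3.3) to 22 libraries (wild type 18 to 28 h, mutant 21 to 31 h), with the 11 matched pairs as block and a genotype effect per stretch. This left 8 residual degrees of freedom. The middle effect, and its difference from the mean of the early and late effects, were tested over all 12099 genes with Benjamini-Hochberg adjustment at 0.01. SE is the log2 difference divided by the square root of F. Because the pairs are hours of 1 course, p-values measure only the spread around matched hours. The pairing was checked by the correlation of deviations from the genotype means, which was 0.821, 0.374 and 0.747 for the matched pairs and -0.811 to 0.387 for the others.

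Genes were named by rule: among those called with 1 sign in 3 of 3 pairs and a mean of at least 5 CPM in the higher genotype, the 12 largest differences each way; from each list up to 4 called members of lowest p, or else the 2 most abundant; and *ebax-1*. Other names were added after their values were seen, as is said for the hydrolases and metabolic enzymes, and holds for the remaining members of lists too. The samples and lists were chosen with earlier results of these data known. Alternatives were no filter, DESeq2 size factors, total counts, DESeq2 1.42.0 (Wald test), limma 3.58.1 (log2 of scaled counts plus 8), no block, the 6 libraries alone, a spline time model, pairs 2 h, 4 h and 0 h apart, each pair left out, and a threshold of 0.05. Gene names and coordinates come from WBcel235 tables matched by gene identifier, which named 19182 and placed 19870 of the genes, and were not converted from ce10. How reads shared between gene copies were counted is not given in the sources used here.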

Additional observations from a re-analysis of the deposited data

How the results depend on the processing

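Of 179 genes called for the middle genotype difference, the count moved to 334 by DESeq2's Wald test (198 higher, 136 lower, all 179 among them), 116 by limma (90 and 26), 37 with no replicate block, 12 with the 6 middle libraries alone, 96 with pairs at 2 h, 18 at 4 h, 84 at the same hour and 623 at a threshold of 0.05. Leaving out 1 pair gave 43 to 91. With total counts alone 155 were called, 72.3% of them higher against 59.2%, and limma called 77.6% higher. For middle against early and late the 0 calls became 15 by DESeq2, and 0 to 6 on leaving out a pair (6 without the pair at wild-type 24 h). The 6 calls within 1 Mb of *ebax-1* became 10 by DESeq2, 1 by limma, 1 with no replicate block, 0 with the 6 libraries, 11 with the spline, 2 at 2 h and 1 at 4 h, and 0 to 2 on leaving out a pair. The *ebax-1* level of -1.37 lost its call by limma (-1.28, adjusted p = 0.0112), with no replicate block (-1.46, edgeR adjusted p = 0.24), with the 6 libraries (-1.36, edgeR adjusted p = 0.0523), at 2 h (-0.69, edgeR adjusted p = 0.0856) and at the same hour (-0.90, edgeR adjusted p = 0.413), and ran from -1.65 to -1.15 on leaving out a pair.

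The direction reversed at the same hour for *cyp-32A1* (-0.55), *cutl-28* (3.18), *ugt-44* (-0.23), *col-39* (-3.68) and *ptr-8* (-1.05), and at 2 h for *cutl-28* (0.059) and *col-39* (-0.55). The cause was not tested. Over the 128 named genes, *ebax-1* left aside, 1348 of 1778 values stayed on the same side of the threshold. Another 417 lost and 6 gained the call, and 7 are the reversals above. Direction was not required of genes without a call in either fit, so the 1348 include changes of sign, as for *mlt-11* (-0.76 to 3.12). Of the 128 named genes, 70 were called. The 4 genes *F09C8.1*, *T25C12.3*, *irg-5* and *lys-7* kept theirs in all 14 alternatives. Genes with few reads, such as *clec-61* and *lipl-3*, are limited by counting error.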
